A study of Mus musculus with 2 samples.

Results

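Teneurins and latrophilins are partner families of synaptic adhesion molecules, and their transcripts carried 1748 of the 219409 N6-methyladenosine (m6A) sites listed for the neonatal mouse cerebellum and cerebrum. The set comprises 7 genes, the teneurins Tenm1, Tenm2, Tenm3 and Tenm4 and the latrophilins Adgrl1, Adgrl2 and Adgrl3. A site belongs to a gene when it lies inside its GENCODE M21 interval on the gene's strand, a rule that 12624 coding genes met with at least 1 site in either library. The 7 genes were chosen by their known partnership and with the site lists already examined, so their site counts are a description. They held 638 of the 79355 sites of the cerebellum library and 1370 of the 188295 sites of the cerebrum library, of which 260 were in both.

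The sites were measured by GLORI, which deaminates unmethylated adenosines with glyoxal and nitrite so that they are read as G, while m6A is still read as A. The data consist of 1 cerebellum and 1 cerebrum library from poly(A)+ RNA of a female at postnatal day 0 of the F1r hybrid, with a C57BL/6J mother and a PWK/PhJ father, and both tissues share this genotype, sex and age. The study's methods describe both RNA samples as coming from a single mouse, so the values carry no spread between animals. The lists give the position and strand of the sites that passed the authors' minimum for methylation rate and read number, without the rates or reads themselves, so the depth is unknown. A position that is not listed can therefore be unmethylated, not expressed or too thinly covered.

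Since each tissue is a single library, differences between them have no replicates and were not tested, and the 95% Wilson intervals in brackets cover counting error over sites only. Expression was not measured here, so a fuller list in one tissue and a higher level of the transcript there cannot be told apart. Of 12 hindbrain genes such as En2, 7 had an exonic DRACH site in the cerebellum library and 3 in the cerebrum library, and of 12 forebrain genes such as Tbr1, 5 and 12 did. The cerebellar markers Atoh1, Ptf1a, Pax2 and Pcp2 had no site in either library. Chromosome Y, which female mice lack, held 14 sites in the cerebellum library and 30 in the cerebrum library.

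Teneurins are large transmembrane proteins whose extracellular part carries EGF-like repeats and a barrel of YD repeats. Latrophilins are adhesion G protein-coupled receptors that bind teneurins through a lectin domain and FLRT proteins through an olfactomedin domain, and together these proteins guide axons and specify synapses. The m6A mark is written on nascent RNA by the METTL3-METTL14 methyltransferase, mainly in the motif DRACH (D, any base but C; R, a purine; H, any base but G). In mRNAs it is known to be dense in long internal exons and around the stop codon and sparse close to splice junctions.

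To show what the sites look like, the exonic DRACH site listed in both libraries that lies nearest to the stop codon is given for each gene, from GRCm38 (mm10), 5′ to 3′ on the gene's strand, written as DNA with the methylated 5-mer in capitals. Positions relative to the stop codon refer to the reference isoform, which is the longest coding transcript with both UTRs.
Tenm1, chrX:42532432-42532432, minus strand, 33 nt downstream of the stop codon: ttgcgtcaccaaAGACTgcctgtttttaa
Tenm2, chr11:36008107-36008107, minus strand, 70 nt upstream: gtacttccggtgGAACAgtacccggagct
Tenm3, chr8:48228396-48228396, minus strand, 50 nt downstream: acaatccaaaccGGACTctccaaagagcc
Tenm4, chr7:96906531-96906531, plus strand, 58 nt upstream: gagcagtacccaGAACTgtcagacagcgc
Adgrl1, chr8:83939099-83939099, plus strand, 13 nt downstream: gaggggcctcatGGACCcgaggcctggcc
Adgrl2, chr3:148817835-148817835, minus strand, 123 nt downstream: cctgcgcaaggcGGACTaccacgacggcg
Adgrl3, chr5:81795036-81795036, plus strand, 25 nt upstream: gggacttccaaaGGACCcgcgcacttggt
These sites all lay in the last exon of their isoform. The reference isoform of Adgrl2 is annotated with a shorter coding sequence than its paralogs have, which puts its whole last exon in the 3′ UTR. GENCODE tags this isoform as not supported in the organism, so the positions of Adgrl2 relative to the stop codon and its 3′ UTR values rest on an uncertain model.

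Tenm2 and Adgrl3 held the most sites of the 7 genes, and Adgrl1 the fewest in the cerebellum and cerebrum lists. Tenm1 (chrX:42527866-43429126, minus strand) held 37 sites in the cerebellum library and 85 in the cerebrum library. Tenm2 (chr11:36006656-37235964, minus strand) held 254 and 532, which ranked 4th among the 8882 coding genes with a site in the cerebellum library and 7th among the 12362 of the cerebrum library. Tenm3 (chr8:48227682-48843951, minus strand) held 78 and 141, and Tenm4 (chr7:96171246-96911093, plus strand) held 44 and 160. Among the receptors, Adgrl1 (chr8:83900105-83941954, plus strand), whose gene spans only 41.9 kb, held 35 and 40 sites. Adgrl2 (chr3:148815583-148990555, minus strand) held 43 and 90, and Adgrl3 (chr5:81020138-81825133, plus strand) held 147 and 322. Every gene had more sites in the cerebrum library, the larger of the lists.

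**Figure D1:**
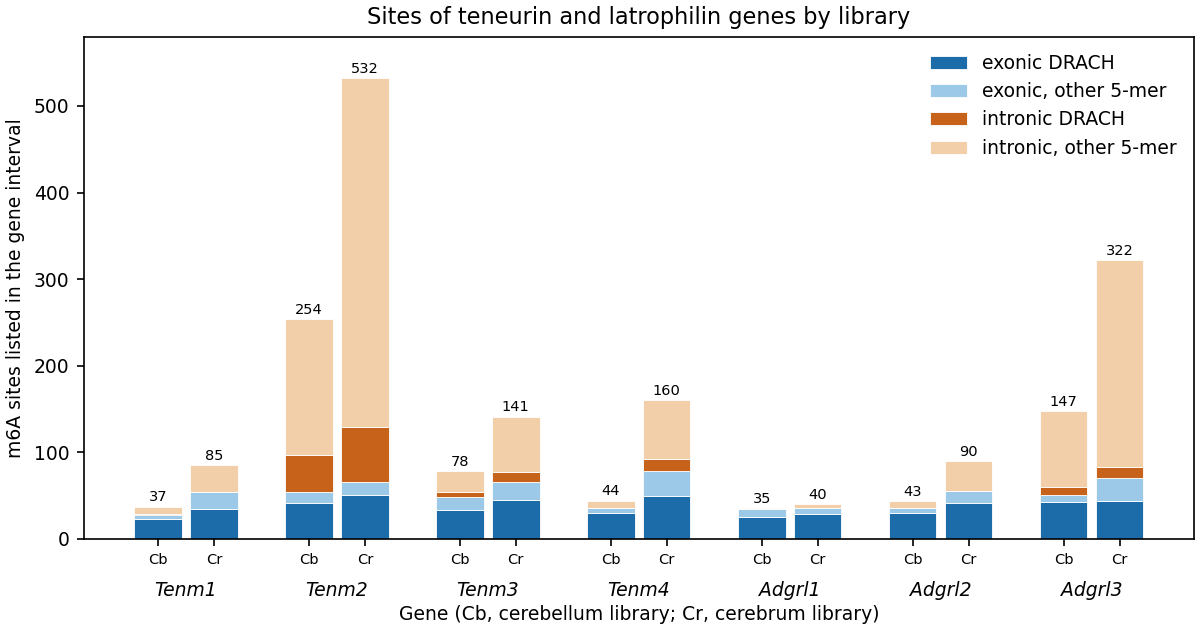
Stacked bars give the number of m6A sites listed in the interval of each gene, split by exon or intron and by DRACH or another 5-mer, for the cerebellum (Cb) and cerebrum (Cr) libraries. Tenm2 and Adgrl3 reach 532 and 322 sites in the cerebrum through intronic sites outside DRACH, while the exonic DRACH sites range only from 23 to 51 over all bars.

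Most intronic sites were outside the motif and found in a single library. Of the 638 sites in the cerebellum list, 353 were intronic (55.3%, 51.5% to 59.1%), as were 947 of the 1370 in the cerebrum list (69.1%, 66.6% to 71.5%), against 20.9% and 28.8% over all coding genes under the same rule. Of these intronic sites, 17.0% (13.4% to 21.3%) and 10.9% were DRACH, below the values of all coding genes, which were 26.7% in the cerebellum and 10527 of 52639 sites in the cerebrum. Exonic sites were mostly DRACH, as they were over all coding genes, at 73.6% and 59.9%. On exons, DRACH made up 224 of 285 sites in the cerebellum (78.6%, 73.5% to 83.0%) and 291 of 423 in the cerebrum (68.8%, 64.2% to 73.0%), and the 5-mers seen most often were GGACT at 50 of the 486 exonic sites of either library, GGACA at 42 and TGACT at 37.

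The exonic DRACH sites largely recurred between the tissues. Of the 316 listed in either library, 199 were in both, 25 in the cerebellum library only and 92 in the cerebrum library only. Both libraries thus held 88.8% (84.0% to 92.3%) of the cerebellum list and 68.4% (62.8% to 73.5%) of the cerebrum list, where all coding genes gave 83.4% and 48.5%. Over all sites, intronic ones included, the order was reversed. The shared part was then 40.8% (37.0% to 44.6%) and 19.0% (17.0% to 21.1%), against 62.1% and 26.4% in all coding genes. Adgrl3 was the most alike in both tissues, with 42 and 43 exonic DRACH sites and 38 shared, whereas Tenm4 went from 30 to 49 with 28 shared and 2 in the cerebellum list only. The ratio of cerebrum to cerebellum counts was 1.02 for Adgrl3, 1.12 for Adgrl1, 1.24 for Tenm2, 1.36 for Tenm3, 1.37 for Adgrl2, 1.48 for Tenm1 and 1.63 for Tenm4. Over the 432 coding genes with at least 20 exonic DRACH sites in the cerebellum list, the ratio's quartiles were 1.12, 1.28 and 1.48. Among these genes, Tenm4 lay above the upper quartile and Adgrl3 below the lower one. They were selected by their cerebellum count, which is the denominator of the ratio. With the exonic DRACH sites of all coding genes pooled, the ratio was 1.72, and each of the ratios listed above, that of Tenm4 included, was lower. In introns, Tenm4 had 8 sites in the cerebellum list and 82 in that of the cerebrum, a ratio of 10.2, against 3.23 over all coding genes.

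To account for differences in transcript length, the listed sites were set against every DRACH adenosine of the reference isoforms. Of 1504 such adenosines, 216 were called in the cerebellum library (14.4%, 12.7% to 16.2%) and 278 in the cerebrum library (18.5%, 16.6% to 20.5%). The background over the reference isoforms of all coding genes with a site was 5.52% for the cerebellum list and 7.30% for that of the cerebrum. The genes were chosen with these lists known, so the excess over the background is no test. In the cerebrum, the called share was 27.5% (20.8% to 35.5%) in Adgrl2, 23.0% (17.6% to 29.3%) in Tenm3, 20.8% (15.4% to 27.6%) in Adgrl3, 20.4% (14.5% to 28.0%) in Adgrl1, 19.7% (15.2% to 25.1%) in Tenm2, 15.8% (12.2% to 20.3%) in Tenm4 and 11.1% (8.06% to 15.1%) in Tenm1. Each pair of neighbours in that order overlapped in its intervals, while the interval of Tenm1 lay below those of Adgrl2, Tenm3, Adgrl3 and Tenm2, and that of Tenm4 below that of Adgrl2. In the cerebellum, Adgrl2 was again highest at 21.7% (15.7% to 29.3%) and Tenm1 lowest at 7.52%.

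The called adenosines were concentrated in a few long exons. The reference isoforms have 197 exons, of which 19 are longer than 400 nt. These 19 exons hold 52.8% of the nucleotides and 787 of the DRACH adenosines, of which 285 were called in either library (36.2%, 32.9% to 39.6%). The other 178 exons hold 717 DRACH adenosines, of which 17 were called (2.37%, 1.49% to 3.76%), and 163 of them had none. Over all coding genes, internal exons longer than 400 nt likewise had a higher called share, 14.4% in the cerebellum and 19.4% in the cerebrum, than internal exons of up to 400 nt, 0.558% and 0.973%, and last exons had 7.20% and 9.60%. In the 7 genes these shares were 34.9% (29.7% to 40.6%) and 43.8% (38.3% to 49.6%) for long internal exons, 0.436% (0.148% to 1.27%) and 2.03% (1.22% to 3.39%) for the shorter ones, and 22.6% (19.1% to 26.5%) and 27.5% (23.7% to 31.6%) for last exons. In Adgrl1 and Adgrl3, every called DRACH adenosine of the reference isoform, 30 and 38, lay in an exon over 400 nt.

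**Figure D2:**
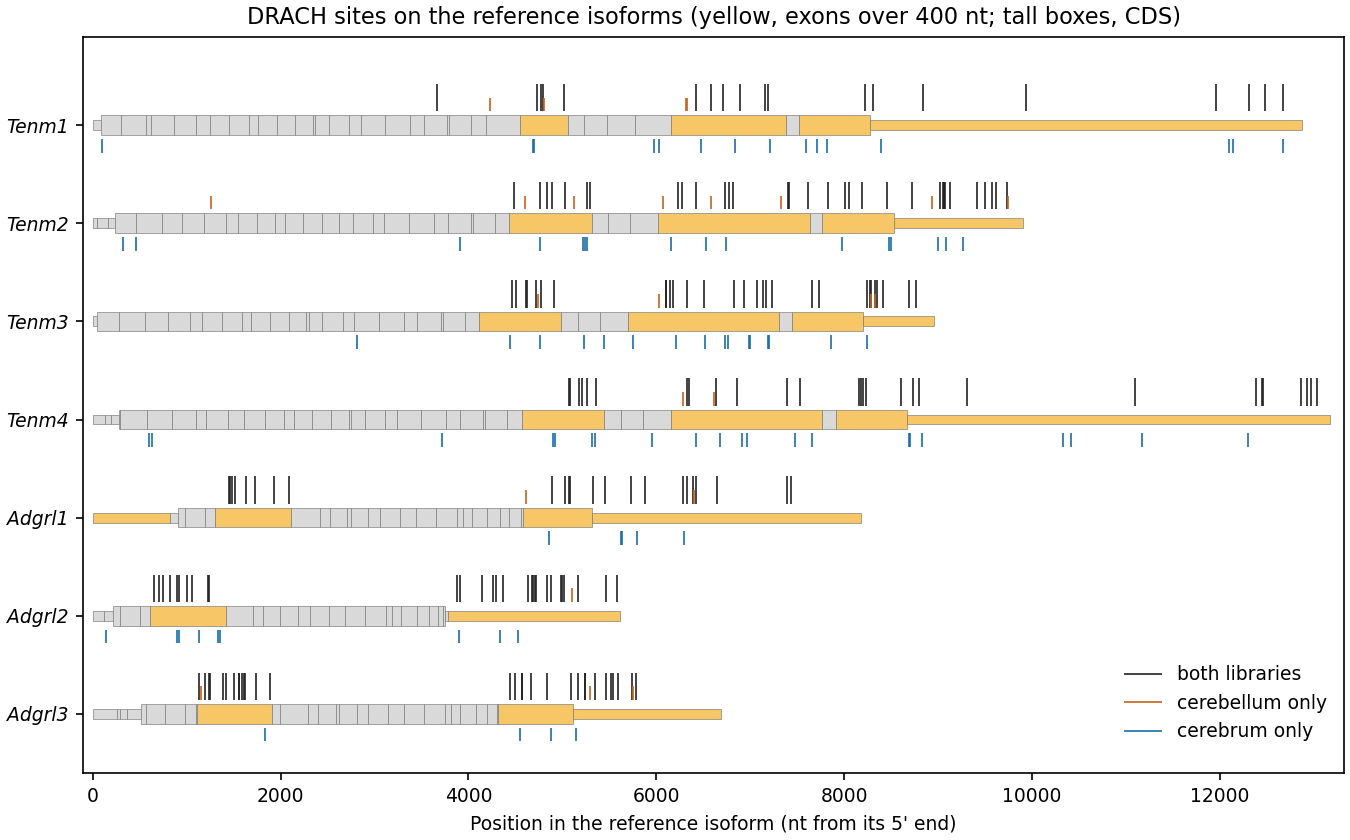
Each row is a reference isoform drawn to scale in nt from its 5′ end, with tall boxes for the CDS, low boxes for UTRs and exons over 400 nt in yellow. Ticks are DRACH sites, black and tall above the isoform for both libraries, short orange above it for the cerebellum library only and blue below it for the cerebrum library only, and 285 of the 302 fall on yellow exons.

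In the teneurins, a pair of long internal exons codes for parts of the C-terminal extracellular region, which includes the YD repeats. The first of these covers codons 1402 to 1693 in Tenm2 (exon 25, 875 nt), where 13 of 21 DRACH adenosines were called in either library. The same exon had 10 of 22 called in Tenm3 (exon 23, 875 nt) and 10 of 17 in Tenm4 (exon 27, 878 nt). The next covers codons 1930 to 2468 in Tenm2 (exon 29, 1615 nt), with 15 of 38 called, against 22 of 39 in Tenm3 (exon 27, 1612 nt) and 14 of 41 in Tenm4 (exon 31, 1615 nt). In the exons of up to 400 nt, 5 of 153 DRACH adenosines were called in Tenm1, 4 of 134 in Tenm2, 3 of 107 in Tenm3 and 4 of 121 in Tenm4.

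Tenm1, the X-linked teneurin, has both of these exons interrupted by an additional intron. Its exons 24 (367 nt) and 25 (511 nt) together match exon 25 of Tenm2, with 1 of 9 and 7 of 13 DRACH adenosines called, and its exons 29 (388 nt) and 30 (1221 nt) match exon 29 of Tenm2, with 2 of 11 and 11 of 27 called. These additional junctions allowed the same stretch of coding sequence to be compared with and without a junction, a comparison chosen after the maps were seen. Within 100 aligned nt of the junction of exons 24 and 25, Tenm1 had 0 of 3 DRACH adenosines called in either library, while Tenm2 had 4 of 4, Tenm3 had 3 of 3 and Tenm4 had 2 of 3. Around the junction of exons 29 and 30, Tenm1 had 0 of 5, while Tenm2 had 1 of 2, Tenm3 had 5 of 7 and Tenm4 had 2 of 4. Over both stretches, the 3 genes without the junction had 17 of 23 called (73.9%, 53.5% to 87.5%), and 0 of 8 in Tenm1 allows up to 32.4%. Tenm1 also had the lowest called share of the 7 genes over its whole isoform, and the part of this in the difference was not tested. All such junctions were then counted, also after the values were seen. In both families together, 12 junctions had no junction of a paralog within 3 alignment columns. Within 100 aligned nt of them, 2 of 41 DRACH adenosines were called in the gene with the junction (4.88%, 1.35% to 16.1%) and 26 of 99 in the paralogs (26.3%, 18.6% to 35.7%). At 7 of the 12, a paralog had another junction within 100 alignment columns, and 2 of 30 were called with the junction and 5 of 65 in the paralogs. At Tenm1 exons 3 and 4, that junction was only 9 columns away, so not all of the 12 need be particular to 1 paralog. Among the 7, Adgrl3 had 2 of 7 called at its junction of exons 7 and 8, against 1 of 8 in its paralogs, and Tenm1 had 0 of 3 at exons 3 and 4 and 0 of 5 at exons 6 and 7, with 0 of 7 and 0 of 9 in its paralogs. The windows at Tenm1 exons 6 and 7 and at Tenm2 exons 8 and 9 overlap. Adenosines of Tenm3 and Tenm4 there were counted more than once. The 5 without a nearby junction had 0 of 11 called with the junction, which allows up to 25.9%, and 21 of 34 without it (61.8%, 45.0% to 76.1%). Of these 5, the 3 besides the pair described above had 0 of 3 and 4 of 11. Among the 3, only Tenm4 exons 3 and 4 had DRACH adenosines on both sides of the comparison, 0 of 1 and 1 of 4. At exons 20 and 21 of the uncertain Adgrl2 isoform there were 0 with the junction, and 3 of 7 were called without it. Adgrl3 exons 4 and 5 had 0 of 2 called, with 0 DRACH adenosines in the paralogs. The sum over the 3 is thus not a matched comparison.

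In the latrophilins, the long internal exon has exactly 801 nt in each paralog and codes for most of the olfactomedin domain. It covers codons 132 to 399 of Adgrl1 (exon 5), 133 to 400 of Adgrl2 (exon 5) and 200 to 467 of Adgrl3 (exon 9). In Adgrl1, 8 of its 22 DRACH adenosines were called, and all 8 were called in both libraries. In Adgrl2, 15 of 26 were called, 10 of them in both libraries, and in Adgrl3, 16 of 26 were called, 14 in both. The exons that follow, which code for the extracellular linker, the GAIN domain and the transmembrane helices, had no called DRACH adenosine before the last exon in any of the 3 genes.

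The 3′ UTRs of the last exons differed in length. Tenm2 and Tenm3 have 3′ UTRs of 1379 and 764 nt in which 35.9% (22.7% to 51.6%) and 52.6% (31.7% to 72.7%) of DRACH adenosines were called in the cerebellum. In Tenm1 and Tenm4, whose 3′ UTRs have 4599 and 4502 nt, 7.37% (3.61% to 14.4%) and 10.2% (5.78% to 17.3%) were called there, near the 6.57% of all coding genes in the cerebellum. In the cerebrum, the values were 11.6% (6.59% to 19.6%) in Tenm1 and 16.7% (10.8% to 24.8%) in Tenm4, against 8.65% over all coding genes. Beyond 750 nt from the stop codon, 8 were called in either library in Tenm1 and 12 in Tenm4. Of these, 7 and 8 lay in the last 1000 nt of the transcript. That part held 24 of the 73 DRACH adenosines beyond 750 nt in Tenm1 and 28 of the 86 in Tenm4. In Adgrl1, whose 3′ UTR has 2868 nt, 2 of 9 called lay there, with 16 of 34 DRACH adenosines. In the first 750 nt, 3 of 22 DRACH adenosines were called in Tenm1 and 6 of 22 in Tenm4. Adgrl3 had 13 of 22 called in the first 750 nt and 0 of 13 farther downstream. In Adgrl2, where the distance is counted from the stop codon of the shorter coding sequence, 8 of 20 were called in the first 750 nt and 15 of 24 beyond it. The distance of 750 nt was chosen after these values were seen.

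The densest groups of DRACH sites lay in these last exons in Tenm2, Tenm3, Tenm4 and Adgrl2, and in the long internal exons in Tenm1, Adgrl1 and Adgrl3. The site with the most other DRACH sites within 50 nt is given for each gene among the sites of both libraries, with the 5-mer in capitals.
Tenm1, chrX:42576649-42576649, minus strand, exon 25, 3 neighbours: cctgctgaccaaGAACTctaccagttcac
Tenm2, chr11:36007508-36007508, minus strand, 3′ UTR, 5 neighbours: cagaccagctgaGGACAactcagactgac
Tenm3, chr8:48228353-48228353, minus strand, 3′ UTR, 6 neighbours: tgctctgcagacAGACAcatcgcagatac
Tenm4, chr7:96906125-96906125, plus strand, exon 33, 3 neighbours: cattgatggggtGGACAcccactactttg
Adgrl1, chr8:83929638-83929638, plus strand, exon 5, 3 neighbours: tgcctcatgggaGGACTatgtagccgcac
Adgrl2, chr3:148817028-148817028, minus strand, 3′ UTR, 4 neighbours: gtaaaacggatcAGACTgaacctcacagt
Adgrl3, chr5:81512461-81512461, plus strand, exon 9, 4 neighbours: cattagccagttGAACCcttacaccctac
The Tenm2 group comprised 6 sites, 5 of them in both libraries, the first 490 nt and the last 552 nt past the stop codon.

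By region, the coding sequence took a larger part of the sites than over all coding genes. Among sites on coding isoforms, 60.1% (54.3% to 65.7%) lay in the CDS in the cerebellum and 64.5% (59.5% to 69.1%) in the cerebrum, where all coding genes gave 40.8% and 42.9%. The 3′ UTR held 39.1% (33.6% to 45.0%) and 35.0% (30.4% to 39.9%). Of the 1504 DRACH adenosines of the 7 genes, 1077 lay in the CDS. Over all coding genes with a site in the cerebellum library, 370257 of 784061 did. Per DRACH adenosine, the CDS of the 7 genes was called less often, 12.1% and 16.3%, than the 3′ UTR, 22.0% and 25.8%. Within 200 nt of the stop codon lay 9.78% (6.81% to 13.9%) and 8.95% (6.47% to 12.2%), against 20.4% and 19.0% in all coding genes. In this window Tenm3 had 8 sites in each library, nearly all downstream of the stop codon, and Adgrl2 had 2 and 3. With the isoform of longest coding sequence, Adgrl2 had 9 and 10. The 5′ UTRs of the reference isoforms hold 36 DRACH adenosines, of which 0 were called in the cerebellum and 1 (2.78%) in the cerebrum, in Adgrl2, where all coding genes had 2.98% and 3.71%. This count depends on where the reference isoform starts. It leaves out the group of Adgrl3 sites upstream of that start, which is described below. With the isoform of longest coding sequence for each gene, the CDS share was 70.2% and 74.1%.

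The called share rose with distance from a junction up to 400 nt. Less than 100 nt from a junction, 2.95% (1.93% to 4.46%) of the DRACH adenosines of the 7 genes were called in the cerebellum and 4.63% (3.31% to 6.43%) in the cerebrum. From 100 to under 200 nt, the respective shares were 17.6% (12.3% to 24.5%) and 24.3% (18.1% to 31.8%), and 39.7% (32.2% to 47.8%) and 49.3% (41.3% to 57.3%) from 200 to under 400 nt. At 400 nt or more they were 22.3% (18.9% to 26.2%) and 27.6% (23.8% to 31.7%). All coding genes also had their lowest share below 100 nt, 1.06% and 1.63%, and their highest from 200 to under 400 nt, 14.6% and 18.4%. Their share at 400 nt or more, 6.52% and 8.81%, was below that from 100 to under 200 nt, 11.1% and 13.9%. The 7 genes pooled had the reverse, with overlapping intervals. Taken singly, Tenm1, Tenm4, Adgrl1 and Adgrl3 went as all coding genes did in both libraries. Tenm2, Tenm3 and Adgrl2 went the other way. In the cerebrum, Tenm1 and Tenm4 dropped to 13.9% (8.75% to 21.4%) and 17.3% (11.9% to 24.4%) at 400 nt or more, where their long 3′ UTRs lie, while Adgrl2 and Tenm3 stood at 58.1% (40.8% to 73.6%) and 52.5% (37.5% to 67.1%).

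**Figure D3:**
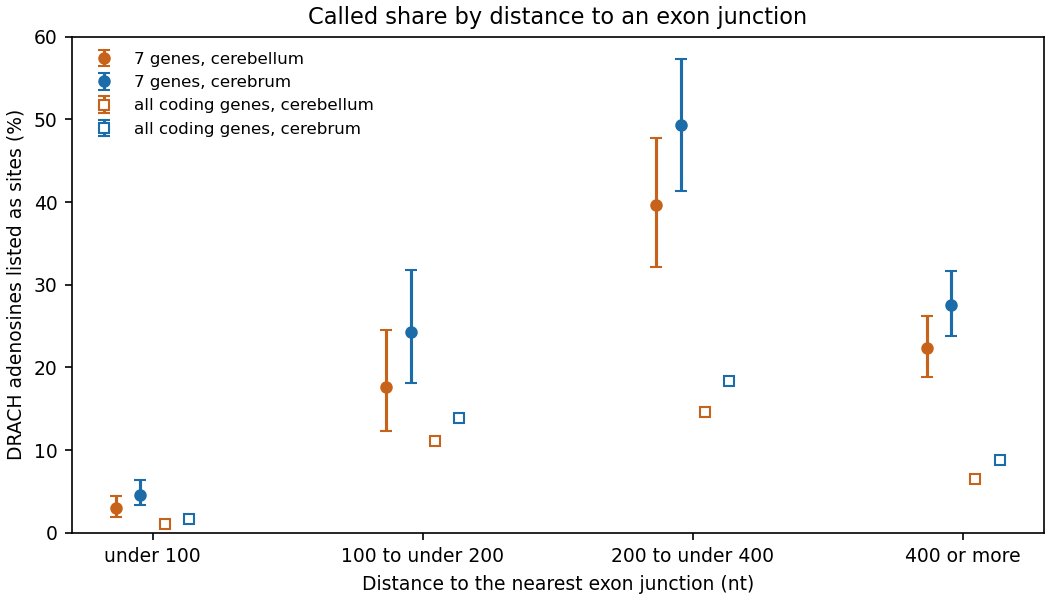
The share of DRACH adenosines listed as sites, in percent, is plotted by distance to the nearest exon junction of the reference isoform in nt for the 7 genes (filled circles) and all coding genes with a site (open squares), with 95% Wilson intervals as bars. Between the first and the third distance class, the 7 genes go from 2.95% to 39.7% for the cerebellum (orange), and the cerebrum values (blue) run from 4.63% to 49.3%.

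To ask whether paralogs are methylated at the same place, the coding sequences were aligned through their proteins, which are identical at 58.0% to 70.5% of aligned residues among teneurins and 57.5% to 69.3% among latrophilins. The 7 genes have 114 CDS DRACH sites listed in both libraries, which correspond to 299 positions in paralogs, of which 11 were gaps. Where the paralog also had a DRACH 5-mer, it was called in either library at 80 of 107 positions (74.8%). Where its 5-mer was not DRACH, it was called at 5 of 181 (2.76%). Exonic sites were mostly DRACH, and some of these 181 positions have no A at the centre. A low share there was therefore set in advance and is no test of the motif. Over the 475 aligned pairs of DRACH adenosines, a gene was called in the cerebrum at 59.2% of positions where its paralog was called and at 9.47% where it was not, and in the cerebellum at 55.0% and 6.51%. Positions enter once from each side and paralogs share exon structure, so these pairs are not independent.

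**Figure D4:**
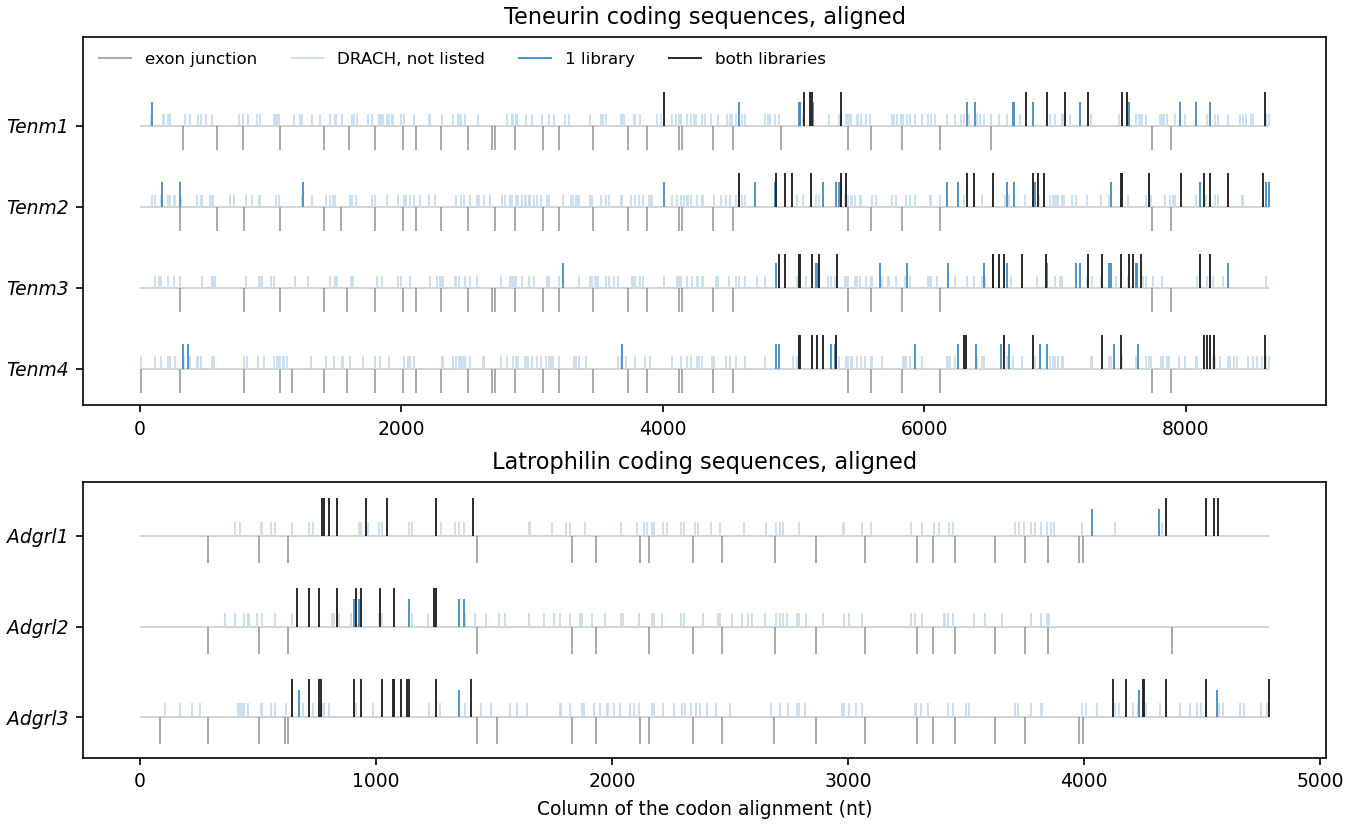
Rows are the coding sequences of the reference isoforms on a common axis of alignment columns in nt, with exon junctions as grey ticks below each line and DRACH adenosines above it, light blue when not listed, blue when listed in 1 library and black in both. In the teneurins the black ticks gather in the right part, and in the latrophilins in the stretch of the 801-nt exon and, for Adgrl1 and Adgrl3, near the end, whereas the reference isoform of Adgrl2 has its annotated stop codon before the last exon.

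Sites of both libraries fell on the same aligned nucleotide in at least a pair of paralogs at 22 positions, 14 in the teneurins and 8 in the latrophilins. At 4 positions, 3 paralogs shared the site. The first of these was in all latrophilins, in the 801-nt exon, 176 nt from the junction in each.
Adgrl1, chr8:83930088-83930088, plus strand, both libraries: aggcaaccgcgtGGACTatgccttcaaca
Adgrl2, chr3:148858909-148858909, minus strand, both libraries: caagaacaccatTGACTacatctacaaca
Adgrl3, chr5:81512608-81512608, plus strand, both libraries: cggtaataagatTGACTacatttacaaca
The others were in teneurins. In the first long internal exon, Tenm1, Tenm3 and Tenm4 had the site, and Tenm2, whose 5-mer there is GGAGT, did not.
Tenm1, chrX:42576590-42576590, minus strand, both libraries: cttgataacaagGGACTatgtttataact
Tenm2, chr11:36047040-36047040, minus strand, not listed: tctggtgactggGGAGTacttgtacaatt
Tenm3, chr8:48276303-48276303, minus strand, both libraries: cctggtcacgggTGACTacctatataatt
Tenm4, chr7:96874258-96874258, plus strand, both libraries: cctacccacaggGGACTacctgtacaact
In the second long exon, the site was missing in Tenm1, which has TGATA there.
Tenm1, chrX:42535881-42535881, minus strand, not listed: tgacatctaccaTGATAcataccctgact
Tenm2, chr11:36023537-36023537, minus strand, both libraries: ggagatctactaTGACTccaatccagact
Tenm3, chr8:48235523-48235523, minus strand, both libraries: tgagatctacttTGACTccaacgtcgact
Tenm4, chr7:96896031-96896031, plus strand, both libraries: ggagatctacatGGACAcaaaccccaact
In the last exon, all teneurins had GGACA, and Tenm1 was listed in the cerebrum library only.
Tenm1, chrX:42532931-42532931, minus strand, cerebrum only: catagaagggagGGACActcactacttca
Tenm2, chr11:36008510-36008510, minus strand, both libraries: catcgagggcaaGGACAcacactactttg
Tenm3, chr8:48228912-48228912, minus strand, both libraries: catcgagggcaaGGACAcacactacttca
Tenm4, chr7:96906125-96906125, plus strand, both libraries: cattgatggggtGGACAcccactactttg

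Only a pair of paralogs shared the site at 11 positions in the teneurins and 7 in the latrophilins. At most 8 positions were printed, those of most paralogs first and then by family name, so no teneurin pair is shown. The 4 that follow lie in the 801-nt exon of the latrophilins and set the sequence beside the listing. At the first, all 3 genes have GGACC and Adgrl1 was not listed.
Adgrl1, chr8:83929551-83929551, plus strand, not listed: tgcatggtgcaaGGACCcgctgcaggcag
Adgrl2, chr3:148859446-148859446, minus strand, both libraries: ggcttggtgcaaGGACCcccttcaggctg
Adgrl3, chr5:81512071-81512071, plus strand, both libraries: ggcatggtgcaaGGACCctctacaggctt
At the second, Adgrl1 has GGATC and was not listed.
Adgrl1, chr8:83929592-83929592, plus strand, not listed: acgttatgccctGGATCccctaccgcacg
Adgrl2, chr3:148859405-148859405, minus strand, both libraries: attttatgccctGGACTccctaccgcacc
Adgrl3, chr5:81512112-81512112, plus strand, both libraries: actatatgccctGGACTccctacagaact
At the third, Adgrl3 has AAGCT and was not listed.
Adgrl1, chr8:83929672-83929672, plus strand, both libraries: accaccacgtacAGACTgcccaaccgtgt
Adgrl2, chr3:148859325-148859325, minus strand, both libraries: acaacaacatacAAACTtccaaaccgagt
Adgrl3, chr5:81512192-81512192, plus strand, not listed: acaactacctacAAGCTccctcacagagt
At the last, Adgrl1 has GGACC, which is DRACH, and was not listed, while its paralogs have GGACT.
Adgrl1, chr8:83929772-83929772, plus strand, not listed: aatatgacctgcGGACCcgcatcaagagc
Adgrl2, chr3:148859225-148859225, minus strand, both libraries: agtttgacttgaGGACTagaatcaagagc
Adgrl3, chr5:81512292-81512292, plus strand, both libraries: agtttgatttgaGGACTaggataaagagt

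Most intronic sites of Tenm2 lay in its intron 4, which spans 479.3 kb between exons 4 and 5. This intron held 428 of the 641 intronic sites of Tenm2 in either library (66.8%) and 76 of its 88 intronic DRACH sites (86.4%). Its length is a large part of the 1219 kb of the Tenm2 interval outside the exons of the reference isoform. Per 100 kb, intron 4 held 89.3 sites, against 43.2 in intron 1 and 47.7 in intron 2. Only intron 26, of 1.6 kb and with 3 sites, had a higher density (192). The DRACH sites of both libraries gathered in a stretch of 2206 nt, chr11:36605382-36607587 on the minus strand, from 257.1 to 259.3 kb downstream of the 5′ splice site. It held 17 DRACH sites, 13 in the cerebellum list, 16 in the cerebrum list and 12 in both, out of 45 DRACH adenosines (37.8%). In the rest of the intron, 59 of 9575 DRACH adenosines were listed (0.616%), 7 of them in both libraries. No exon of GENCODE M21 or of the RefSeq annotation overlaps this stretch on either strand. The stretch was found by a search for at least 5 intronic DRACH sites with gaps of at most 1000 nt, which returned 1 other group in the 7 genes, with 5 DRACH sites, also in intron 4 of Tenm2. To illustrate the stretch, 4 of its sites in both libraries are shown from 5′ to 3′, chosen after their values were seen.
Tenm2, chr11:36607587-36607587, minus strand: gatttccaccatGAACTtgtgtaatatta
Tenm2, chr11:36606842-36606842, minus strand: caagaagccaaaAGACActgcctacatga
Tenm2, chr11:36606276-36606276, minus strand: aaacatagccatTGACTgttgagaaagat
Tenm2, chr11:36605689-36605689, minus strand: aaggcccattctGGACAgataccagcctg

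**Figure D5:**
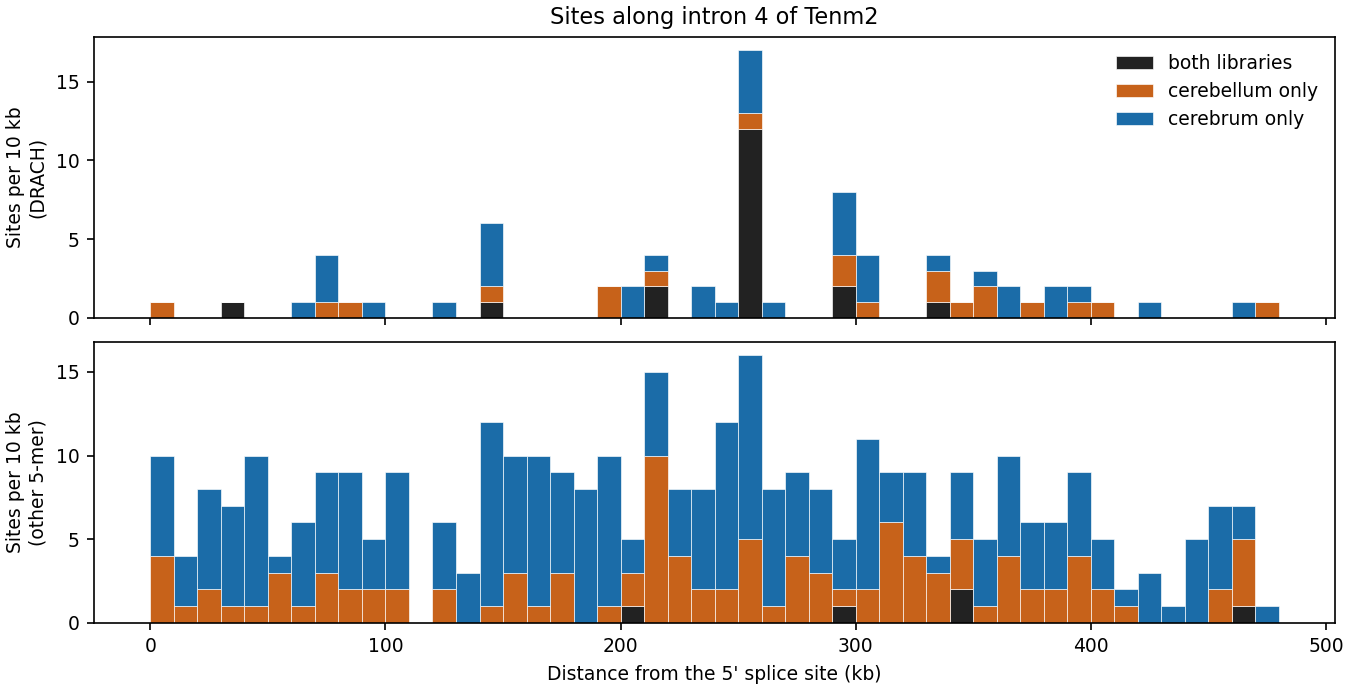
Bars count the sites of Tenm2 intron 4 in bins of 10 kb by distance from the 5′ splice site in kb, DRACH sites above and other sites below, coloured by library. DRACH sites reach 17 in the bin that holds the stretch at 257.1 to 259.3 kb, 12 of them in both libraries, while sites outside DRACH run along most of the intron and are mostly in 1 library.

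Adgrl3 had a group of DRACH sites just upstream of its reference isoform. It comprised 9 DRACH sites, 7 of them in both libraries, among the 10 DRACH adenosines of the 330 nt from chr5:81020845-81021174 on the plus strand, 419 to 748 nt upstream of the start of the reference isoform. In GENCODE M21 these positions lie in transcripts annotated as nonsense-mediated decay or retained intron, whereas in RefSeq they lie in exon 1 of 38 mRNAs. They therefore counted as exonic here but entered neither the regions nor the called share. The first and last of its sites in both libraries, chosen after their values were seen, were as follows.
Adgrl3, chr5:81020895-81020895, plus strand: ggctgcagcgagAGACAcagcctgactcc
Adgrl3, chr5:81021174-81021174, plus strand: gtgtctacagtgGGACAggtccatctttt

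Most of the intronic sites lay outside the motif. Of 1123 intronic sites outside DRACH in either library, 14 were in both libraries and 196 had their A followed by TC (17.5%, 15.3% to 19.8%). Of these 1123 sites, 35 pairs lay exactly 6 nt apart, against 1 pair at 5 nt and 4 at 7 nt. The overlap, the TC share and the pair distances were not counted over all coding genes. They are a description and cannot be called particular to these genes. Per 100 kb of intron, the cerebrum library held 38.3 sites in Tenm2, 31.6 in Adgrl3, 20.7 in Adgrl2, 14.9 in Adgrl1, 12.3 in Tenm3, 11.3 in Tenm4 and 3.49 in Tenm1, where all coding genes with a site gave 6.57. In the cerebellum library the density ranged from 1.10 in Tenm4 to 16.4 in Tenm2, against 2.45 over all coding genes. Intron length was taken here as the gene interval less the exons of the reference isoform, so it can include sequence upstream of that isoform. Tenm1 and Tenm4, with 888 and 727 kb by this count, were thus below the density of all coding genes in the cerebellum.

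At 4 positions, all intronic, the C57 reference base was G in place of A, and each was listed in a single library. With A at the centre, only the first of them would be DRACH.
Tenm2, chr11:36701564-36701564, minus strand, cerebrum: aaaacaagatatAGGCCatttactttaaa
Tenm2, chr11:36795579-36795579, minus strand, cerebellum: atcaaggaaaaaCCGATcaatttatttat
Tenm3, chr8:48449847-48449847, minus strand, cerebrum: ataagcattagcACGCAggcctgaattcc
Tenm3, chr8:48747578-48747578, minus strand, cerebellum: tagatgttctctTCGTTgtctaatttttc

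The other genes of this adhesion system carried sites as well. The list of 14 binding partners includes the FLRT proteins and the UNC5 netrin receptors, which form complexes with latrophilins, as well as contactin 6 and the SHANK scaffolds that bind the latrophilin tail. Exonic DRACH sites were present for 12 of the 14 genes in each library, and for Unc5a and Unc5b in neither. Of their 2023 DRACH adenosines, 11.4% were called in the cerebellum and 16.2% in the cerebrum. Nrxn3, a presynaptic adhesion molecule, had 47 and 54 exonic DRACH sites, while Flrt3, which binds latrophilins and UNC5 receptors, went from 18 to 39. All 7 of the other adhesion G protein-coupled receptors examined, Adgrl4, the Adgrb genes and the Celsr genes, had an exonic DRACH site in each library, with 10.2% and 16.1% of DRACH adenosines called. The share of all coding genes with such a site is not given here, so the counts of genes in both lists are a description only. Adgrl4, known from endothelial cells, had 1 in each, whereas Celsr3, a cadherin-type receptor of axon guidance, had 31 and 52.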

How the data were processed

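GLORI was performed by the authors on poly(A)+ RNA of 1 cerebellum and 1 cerebrum sample. Tissues were taken from the sample records, since both file names share an unexplained abbreviation. The authors mapped the reads to mm10 and to a copy of mm10 carrying the PWK alleles, ran GLORI-tools on each mapping and retained the union, after minimum filters on methylation rate and reads. Genomic positions with strand are what the authors deposited, with neither rates nor reads, so the depth per sample is unknown and a coverage filter shapes which sites are listed.

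Positions were looked up in GRCm38 and in GENCODE M21, which is not the annotation release named in the study's methods. A site was assigned to the longest complete coding isoform covering it, then to exons of other transcripts, then to introns. The reference isoform is the longest coding transcript with both UTRs. A DRACH adenosine of that isoform was called when its position was listed. Coding sequences were aligned as proteins with MAFFT 7.526. The 7 genes and all gene lists were chosen with earlier results of these data known, and some list genes are not reported by name here. Named sites were, per gene, the shared DRACH site nearest the stop codon and the one with most DRACH neighbours within 50 nt, up to 8 groups of paralogs with shared sites, and sites without A. Shares have 95% Wilson intervals. The annotation steps were tested on simulated sites. Sequences were read with samtools 1.23.1 and pysam 0.24.0 in Python 3.11.15, and figures drawn with matplotlib 3.10.9.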

Additional observations from a re-analysis of the deposited data

How the results depend on the processing

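No paired analysis was possible because each tissue has 1 library. Of 74 values under alternative settings, 41 stayed within the interval of the main value or within 1.5 times the main count. The others moved, and the cause was not tested. They are given with the cerebellum value before the cerebrum value. DRACH sites numbered 284 and 394, and among them the shared share was 78.5% and 56.6% and the intron share 21.1% and 26.1%. Restricted to the 260 sites of both libraries, the DRACH share was 85.8%, the intron share 14.6% and, in the cerebrum, the 3′ UTR share 40.0%. RRACH in place of DRACH gave a motif share of 35.7% and 22.7% and a called share of 16.9% and 21.3%. Called shares over 100 nt from a junction were 24.8% and 31.0%. The background over genes with a site in both libraries was 5.59% and 9.07%. Within 400 nt of the stop codon lay 15.6% and 14.5% of sites. DRACH sites within 100 nt of a junction were 9.72% and 11.9%, within 50 nt 6.02% and 5.40%, within 200 nt 21.8% and 24.8%, and among CDS sites 15.4% and 17.6%. The isoform with the longest CDS, an alternative chosen after seeing the data, moved the 3′ UTR share to 29.4% and 25.9% and the CDS share to 70.2% and 74.1%. Leaving out sites on exons of other genes moved none of the 4 results it was run on beyond these bounds. The lists hold no reads, so what depth limits cannot be stated per site, and a list from a deeper or larger library would be longer.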
